A study of Mus musculus with 12 samples.

Results

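The sterol and fatty acid synthesis genes were a set of 34 genes, chosen by their function in lipid synthesis and found by name in both deposited count tables, out of 37931 gene names that the tables shared. They were followed in stem cells sorted from the hair follicles of back skin of mice, with and without the forkhead transcription factor Foxc1, in the growing phase (anagen) and early in the resting phase (early telogen) of the hair cycle. The set held 6 genes of the mevalonate arm, 11 of the steps from farnesyl diphosphate through squalene to cholesterol, 6 regulators and carriers of sterols, 4 of the route from citrate to palmitate, 3 elongases and 4 desaturases. One of them, Msmo1, stood in the tables under its older symbol Sc4mol.

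All mice carried floxed Foxc1 alleles on both chromosomes (Foxc1 fl/fl) and K14-H2BGFP, a green fluorescent histone driven by the keratin 14 promoter of basal keratinocytes. Knockout (KO) mice carried in addition K14Cre, a Cre recombinase under the same promoter, which acts in all keratin 14 lineages and not in these stem cells alone. Wild-type (WT) mice lacked the Cre and kept the floxed alleles, so that no group had unmodified Foxc1 alleles. Cells were sorted as H2BGFP positive, Sca-1 negative, CD34 positive and CD49f positive. Anagen was represented by 2 KO libraries from postnatal days 29 and 31 and by 3 WT libraries titled days 29, 30 and 31, the last of which has an age of 43 days in its labels. For early telogen there were 4 KO libraries, numbered 1, 2, 3 and 5, beside 3 from WT, numbered 1, 3 and 4, all labelled 47 days although KO replicate 5 was titled day 43. Both anagen KO libraries were labelled female, as was anagen WT replicate 1, whereas anagen WT replicates 2 and 3 were labelled male. In early telogen, KO replicate 2 and WT replicate 4 were labelled male and all other libraries female. KO replicate 2 was thus the only male KO library, and a sex term in the stage comparison of KO fits that library alone. The labels do not say that replicates came from different animals, and p-values here reflect only how these samples varied, which may be technical.

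Cells build cholesterol from acetyl-CoA through mevalonate, farnesyl diphosphate, squalene and lanosterol, and build palmitate from the same acetyl-CoA, which elongases and desaturases turn into longer and unsaturated fatty acids. Most of these enzymes are transcribed under the SREBP factors, the products of Srebf1 and Srebf2, which Scap escorts to the Golgi for activation when sterols are low, while Insig1 and Insig2 hold Scap back in the endoplasmic reticulum when sterols are high. In skin the best known user of this chemistry is the sebaceous gland, which sits beside the stem cell niche of the follicle and fills its cells with lipid.

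Promoters of some genes that differed between the stages are shown, together with that of Hmgcs1, which passed in no comparison. RefSeq promoters (build GRCm38.p6, the 250 bases before a start) were matched for 27 of the 34 genes. Scd2, Fads1 and Sqle, which also differed between the stages, were not among these. The first 3 belong to genes that were lower in early telogen, the next to a gene that was higher in early telogen of WT mice, and the last to the only one of these 27 genes with the sterol regulatory element letters searched here. Capitals mark matches, on either strand, to the CCAAT box, to the GC box letters GGGCGG, to the E-box letters CACGTG, to the sterol regulatory element letters TCACNCCAC or to the forkhead letters GTAAACA. The windows are chr9:77917115-77917364 on the plus strand for Elovl5, chr19:10101504-10101753 on the minus strand for Fads2, chr1:121332590-121332839 on the minus strand for the most upstream start of Insig2, chr15:82147019-82147268 on the plus strand for Srebf2 and chr13:119690101-119690350 on the plus strand for Hmgcs1. Each is written from 5′ to 3′ along the gene's strand.
Elovl5: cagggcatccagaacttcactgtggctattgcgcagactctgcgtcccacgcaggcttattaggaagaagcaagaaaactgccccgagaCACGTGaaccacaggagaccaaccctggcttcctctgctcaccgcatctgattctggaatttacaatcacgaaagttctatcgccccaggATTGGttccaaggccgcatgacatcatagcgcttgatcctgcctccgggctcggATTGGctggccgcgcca
Fads2: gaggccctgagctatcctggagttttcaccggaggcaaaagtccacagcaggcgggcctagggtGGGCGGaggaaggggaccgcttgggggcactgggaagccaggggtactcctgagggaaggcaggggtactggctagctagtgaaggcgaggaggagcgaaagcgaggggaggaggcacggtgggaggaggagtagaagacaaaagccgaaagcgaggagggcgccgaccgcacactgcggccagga
Insig2: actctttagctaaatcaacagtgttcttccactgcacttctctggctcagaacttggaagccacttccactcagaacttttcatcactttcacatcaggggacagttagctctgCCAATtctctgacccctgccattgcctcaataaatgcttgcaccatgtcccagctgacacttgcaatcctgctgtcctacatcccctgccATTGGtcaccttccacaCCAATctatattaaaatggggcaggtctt
Srebf2: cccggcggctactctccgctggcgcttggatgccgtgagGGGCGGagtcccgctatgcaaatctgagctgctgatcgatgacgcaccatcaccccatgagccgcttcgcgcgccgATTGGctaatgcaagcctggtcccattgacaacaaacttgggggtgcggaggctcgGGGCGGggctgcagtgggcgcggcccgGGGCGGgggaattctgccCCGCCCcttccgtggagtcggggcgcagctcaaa
Hmgcs1: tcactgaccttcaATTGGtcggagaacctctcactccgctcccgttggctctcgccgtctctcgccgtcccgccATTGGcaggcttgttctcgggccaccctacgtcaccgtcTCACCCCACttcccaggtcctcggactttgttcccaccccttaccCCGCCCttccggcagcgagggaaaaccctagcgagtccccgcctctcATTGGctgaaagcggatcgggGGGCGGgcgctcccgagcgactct
CCAAT recurred in 4 of these 5 windows and GGGCGG in 3. These counts depend on the start of Insig2 shown, since the windows of its other starts held GGGCGG and no CCAAT. Elovl5 held CCAAT and CACGTG, Fads2 held GGGCGG, this start of Insig2 held CCAAT, Srebf2 held both CCAAT and GGGCGG, and Hmgcs1 held those and the sterol element. Among 35 promoters of the matched genes, GGGCGG stood in 74.3%, against 32.7% of all 32851 RefSeq promoters of that length. CCAAT stood in 62.9%, against 33.8% of all, and CACGTG in 17.1%, against 6.02%. The sterol element was found in 1 window, a share of 2.86% against 1.05%, and GTAAACA in 1 window, that of Elovl6, a share of 2.86% against 3.17%. A match describes the letters and not a bound site.

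The libraries held 29025553 to 54482469 gene counts in anagen and 2662083 (KO replicate 5) to 11821916 in early telogen. Foxc1, the gene targeted, was at 0.206 and 0.276 CPM (counts scaled to a common library total over genes) in anagen KO and at 34.6 to 116 CPM in anagen WT. In early telogen it was at 0.91 to 3.11 CPM in KO and at 43.8 to 61.2 CPM in WT. The summed level of 10 hair follicle stem cell markers was 21842 to 36126 CPM over the 12 libraries, most of it from Krt5, Krt14 and Krt15, keratin genes that other basal keratinocytes also express. Cd34, which encodes an antigen of the sort, was detected in all libraries, at 230 to 417 CPM in KO and 352 to 845 CPM in WT, and its KO difference in early telogen was -1.20 ± 0.21 on the log2 scale (edgeR adjusted p = 0.0212). In anagen KO, Krt15 was at 1254 and 2192 CPM against 4641 to 9289 CPM in WT, and Nfatc1, a transcription factor gene of these stem cells, at 99.3 and 60 CPM against 160 to 234 CPM, differences that did not pass in edgeR (adjusted p = 0.156 and 0.195). These 2 did not stand for the whole list, since 4 of its 10 genes had positive differences in anagen KO, among them Sox9 at 0.23. The median of the list there was -0.19 on the log2 scale. The part of these markers in the results of the set was not tested. Of the adipocyte markers, 8 of 10 present, the sum was 13.3 to 76.1 CPM, carried by Lipe (8.41 to 73.6 CPM), a lipase gene, and Fabp4 (1.39 to 25.2 CPM), a fatty acid carrier gene, while Adipoq was at 0 in 9 libraries and at most 0.977 CPM. Early telogen KO replicate 2 stood apart in its fibroblast markers, which summed to 4975 CPM against 253 to 1505 CPM in the other early telogen libraries. Its markers of suprabasal epidermis were the highest as well, at 5957 CPM against 1566 to 3833 CPM. Early telogen WT replicate 3 stood apart in its low sebaceous gland markers (72.5 CPM against 152 to 370 CPM).

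Transcripts of this pathway were abundant in all 4 groups, and their total differed by less than the spread between libraries from stage to stage in WT. The 34 genes summed to 2333 ± 337 CPM (SD, n = 3) in WT anagen, 3026 ± 186 CPM (SD, n = 2) in KO anagen, 2487 ± 405 CPM (SD, n = 3) in WT early telogen and 2497 ± 242 CPM (SD, n = 4) in KO early telogen. The order of the genes was read per kilobase of exon. In WT anagen the elongase gene Elovl1, Hmgcs1, which makes HMG-CoA, and Insig2 led at 39.7, 39.2 and 39.2 CPM per kilobase, values closer to each other than the spread between libraries. Acacb, the mitochondria-bound acetyl-CoA carboxylase, was lowest at 0.478 CPM per kilobase. In KO anagen Insig2 led at 81.2 CPM per kilobase. In early telogen the leading gene was Sqle, which makes squalene epoxidase, at 70.3 CPM per kilobase in WT and 51.9 in KO, and Fads2 was lowest in both genotypes, at 0.0526 and 0.200 CPM per kilobase.

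**Figure D1:**
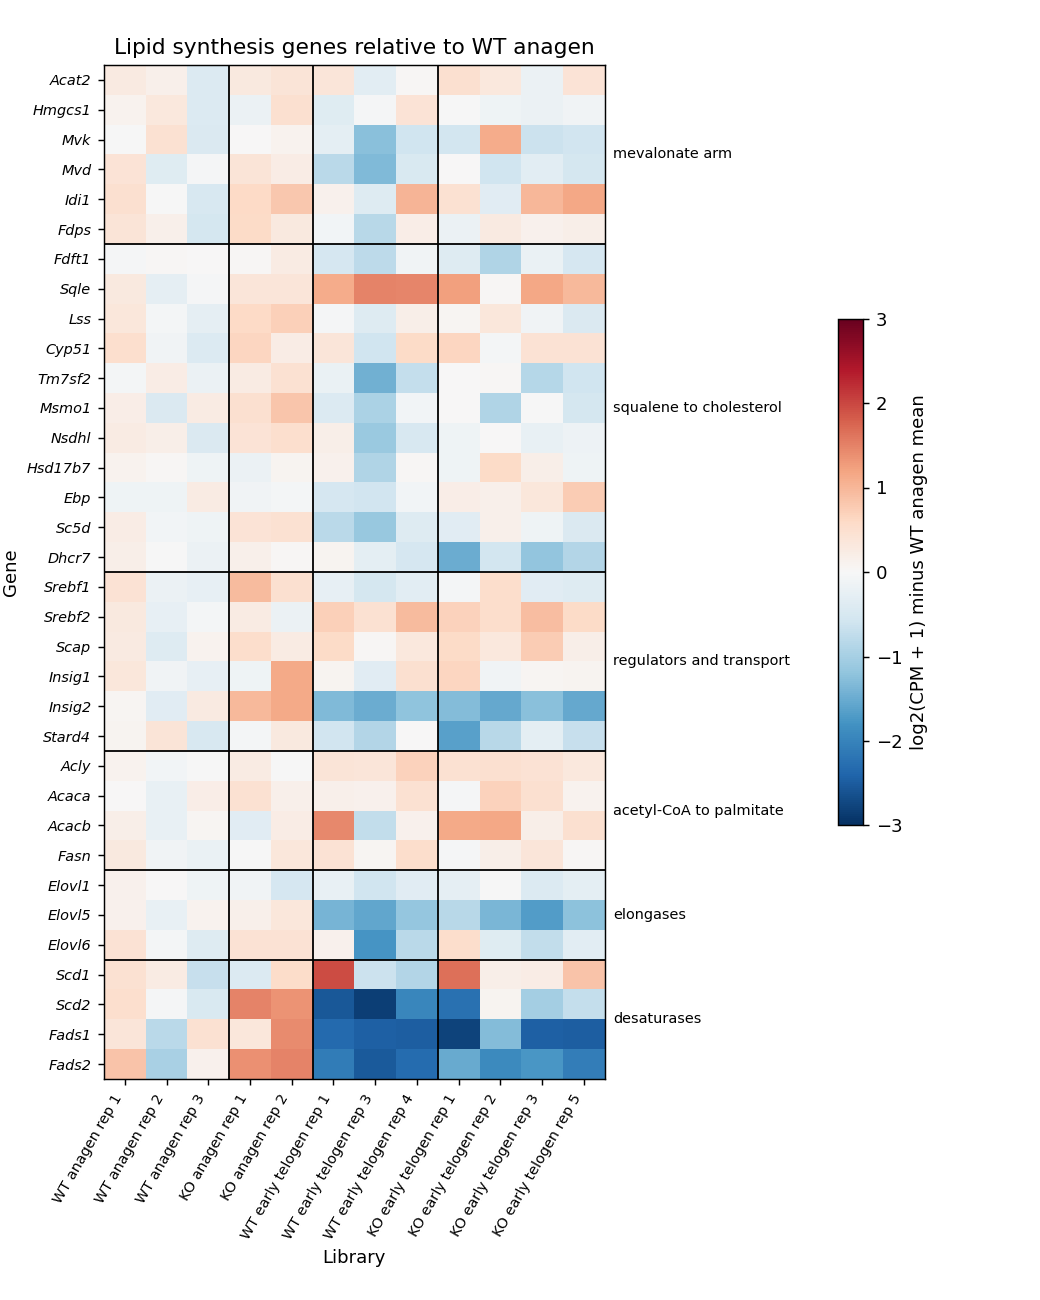
Level of each of the 34 genes (rows, grouped by role) in each of the 12 libraries (columns), drawn as log2(CPM + 1) minus the mean of the WT anagen libraries, with red above and blue below that mean. Scd2, Fads1, Fads2, Elovl5 and Insig2 are blue across early telogen, except Scd2 in KO replicate 2, and Sqle is red there in all libraries but KO replicate 2.

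The first comparison asked how the pathway differed between the hair cycle stages in each genotype. In WT, Sqle, Srebf2 and Acly were higher in early telogen than in anagen, and Scd2, Fads1, Fads2, Elovl5, Insig2 and Sc5d were lower. In KO, Scd2, Fads1, Fads2, Elovl5 and Insig2 were lower too, as were Dhcr7 and Srebf1. No gene of the set passed as higher in KO, although Acly, Ebp and Srebf2 were higher in every early telogen library than in both anagen libraries. Thus 5 genes fell in both genotypes, the genes of a desaturase of saturated fatty acids, both desaturases of the polyunsaturated route, their elongase and an SREBP inhibitor, by 1.28 to 4.86 on the log2 scale. The remaining 25 genes in WT and 27 in KO did not pass at an edgeR adjusted p of 0.05.

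Counted in either direction, the share of the 34 genes that passed was close to that of all genes. By direction it was less close in KO, a lean to lower levels that was not tested as such. In WT, 3 rose and 6 fell, while 13.5% of all 12718 genes tested rose, 15.9% fell and 29.5% did either. In KO, 0 rose in edgeR and in DESeq2 (1 had an unadjusted p under 0.05 in edgeR, Srebf2) and 7 fell, while 10.2% of 12771 genes rose, 12% fell and 22.2% did either. The median log2 fold change of the set was -0.23 in WT and -0.39 in KO, beside -0.10 and -0.03 for all genes. Without overlap between the stages, in CPM over the names shared by both tables, were 3 higher and 11 lower genes in WT, where 16.6% and 31.9% of all genes had such a gap, and 3 higher and 16 lower genes in KO, where 19.8% and 25.0% had. Scaling by library totals in place of TMM factors moved the median of all genes in WT from -0.10 to -0.23. Each stage had its own count table and its own depth range, so stage, table and depth cannot be told apart in any of these values. Markers of dividing cells, all 7 present, summed to 60.7 to 258 CPM in WT anagen, 19.6 to 34.7 CPM in WT early telogen, 132 and 500 CPM in KO anagen and 152 to 180 CPM in KO early telogen. Melanocyte markers, all 5 present, summed to 18.4 to 105 CPM in WT anagen and 1.79 to 4.36 CPM in WT early telogen, and to 13.5 to 32.0 CPM over both KO groups. The adipocyte list summed to 21.2 to 32.3 CPM in WT anagen and 44.5 to 75.0 CPM in WT early telogen. In KO it summed to 13.3 and 15.5 CPM in anagen and 40.4 to 76.1 CPM in early telogen. Only 2 of its 10 genes were tested, of which Lipe passed as higher in early telogen in both genotypes. The other, Fabp4, gave -0.77 ± 0.69 in WT and 1.18 ± 0.72 in KO on the log2 scale and did not pass. Suprabasal markers, all 7 present, summed to 621 and 1090 CPM in KO anagen and 1764 to 5957 CPM in KO early telogen, where 3 rose and 1 fell, and overlapped in WT. Endothelial markers, all 5 present, summed to 8.54 and 12 CPM in KO anagen and 14.8 to 26.9 CPM in KO early telogen, and overlapped in WT. Their part in the stage differences was not tested. In sorted bulk cells, fewer cells of a type and less RNA per cell cannot be told apart either.

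**Figure D2:**
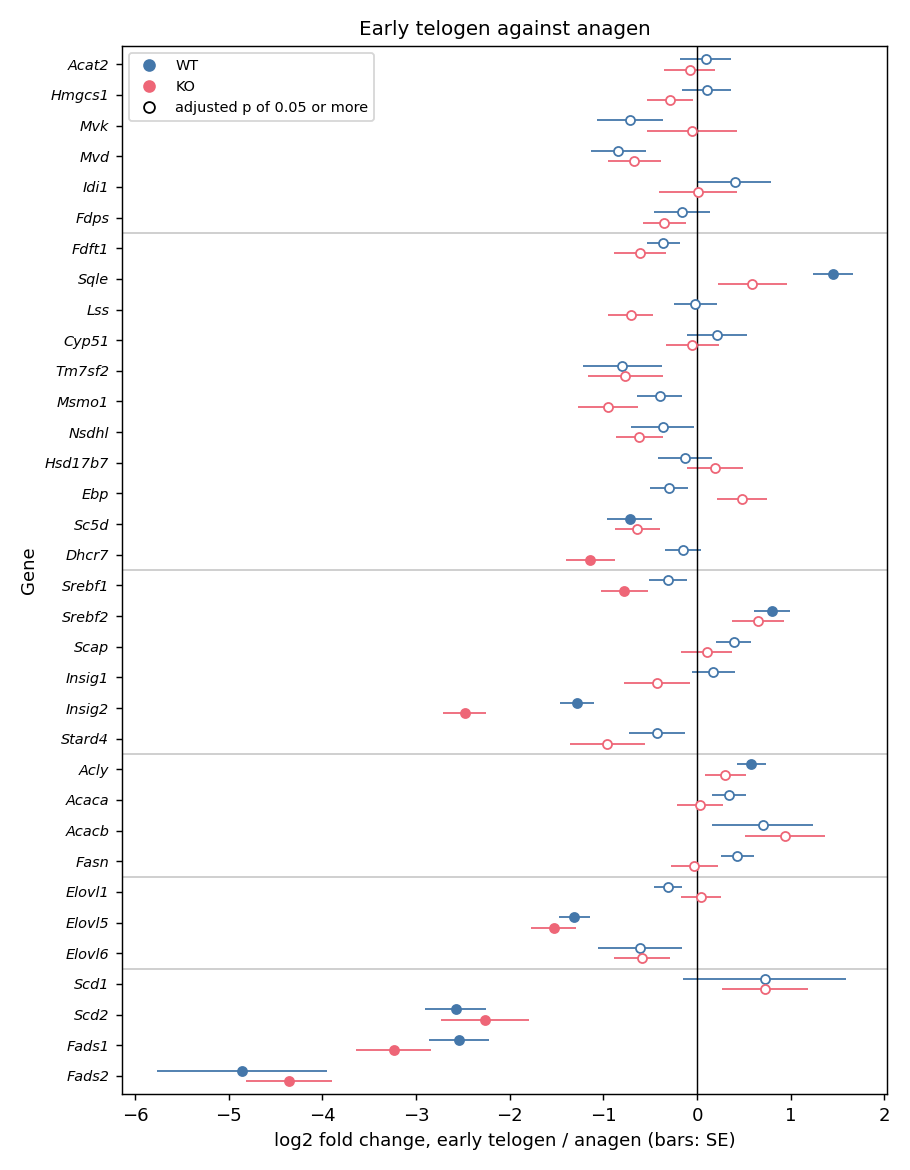
Log2 fold change of early telogen over anagen for each gene, from edgeR, in WT (blue) and KO (red), with bars of 1 SE and open symbols where the adjusted p was 0.05 or more. Fads2, Fads1, Scd2, Insig2 and Elovl5 lie left of 0 with filled symbols in both genotypes, and Sqle, Srebf2 and Acly lie right of 0 with filled symbols in WT.

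In WT the largest differences of the set were those of 3 of the 4 desaturase genes. Scd2 (chr19:44293674-44306864, plus strand, build GRCm38), a stearoyl-CoA desaturase gene whose product puts the first double bond into saturated fatty acids, was at 51.0, 34.8 and 26.0 CPM in WT anagen and at 5.36, 4.17 and 8.48 CPM in WT early telogen. In KO it was at 103 and 92.8 CPM in anagen and at 6.85, 38.2, 17.2 and 21.4 CPM in early telogen. The stages did not overlap in either genotype, and early telogen KO replicate 2, the library high in fibroblast markers, was the highest of its group. The log2 fold change was -2.58 ± 0.33 (SE) in WT (edgeR adjusted p = 0.00142) and -2.27 ± 0.47 in KO (edgeR adjusted p = 0.00986). The call in KO was lost without either anagen KO library, where the edgeR adjusted p reached 0.0923, and was kept without any one early telogen library.

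Fads1 encodes the delta-5 desaturase and Fads2 the delta-6 desaturase of polyunsaturated fatty acid synthesis, and the genes lie near each other on chromosome 19 (Fads1 at chr19:10182888-10196877 on the plus strand, Fads2 at chr19:10062765-10101746 on the minus strand). Fads1 was at 67.5, 29.8 and 72.3 CPM in WT anagen and at 9.64, 8.90 and 8.64 CPM in WT early telogen. In KO, Fads1 was at 67.3 and 143 CPM in anagen and at 6.85, 20.9, 8.89 and 8.64 CPM in early telogen. Every anagen library lay above every early telogen library. Its log2 fold change was -2.54 ± 0.32 in WT (edgeR adjusted p = 0.00140) and -3.24 ± 0.40 in KO (edgeR adjusted p = 0.000545). Fads2 was at 9.36, 1.94 and 5.30 CPM in WT anagen and at 13.9 and 15.3 CPM in KO anagen. In WT early telogen Fads2 had 4, 0 and 1 counts, or 0.357, 0 and 0.163 CPM, and a count of 0 in replicate 3 allows up to 0.278 CPM (3 counts, counting error only). In KO early telogen it had 12, 6, 7 and 1 counts, or 1.02, 0.533, 0.707 and 0.376 CPM. The stages again did not overlap, and the early telogen values rested on few counts. The log2 fold change was -4.86 ± 0.91 in WT (edgeR adjusted p = 0.00546) and -4.36 ± 0.46 in KO (edgeR adjusted p = 0.000146).

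The fourth desaturase gene did not follow the others. Scd1, the main stearoyl-CoA desaturase of sebaceous glands, was at 149, 129 and 67.1 CPM in WT anagen and at 424, 69.4 and 58.4 CPM in WT early telogen. In KO it was at 81.4 and 159 CPM in anagen and at 347, 123, 127 and 199 CPM in early telogen. The stages overlapped in both genotypes, with the highest values in replicate 1 of each early telogen group. The difference was 0.72 ± 0.87 in WT (edgeR adjusted p = 0.585) and 0.72 ± 0.46 in KO (edgeR adjusted p = 0.278) on the log2 scale. Those 2 libraries also had the highest sum of sebaceous gland markers, though not the highest value of each marker. Awat1, a wax synthase gene, was at 4.46 and 4.57 CPM there and at most 1.43 CPM in the other libraries. Krt79, Mgst1, Soat1, Elovl3 and Mc5r peaked elsewhere, Krt79 at 261 CPM in KO early telogen replicate 3. All 10 sebaceous markers found in both tables summed to 358 and 370 CPM in replicate 1 of WT and KO early telogen. They summed to 72.5 and 152 CPM in the other WT early telogen libraries and to 196, 333 and 273 CPM in the other KO ones. In anagen their sum was 273 to 342 CPM. In WT early telogen replicate 3, the library lowest in them, Awat1, Awat2 and Mc5r were at 0. Their part in the level of Scd1 was not tested. Scd1 and Scd2 share 4.56% and 3.97% of their 50-base words with each other or with other Scd genes.

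Among the elongases, Elovl5 (chr9:77917364-77984519, plus strand), which lengthens the products of Fads2, fell in both genotypes. It was at 99.6, 77.7 and 98.6 CPM in WT anagen and at 34, 30.5 and 40.3 CPM in WT early telogen. In KO it was at 101 and 116 CPM in anagen and at 50.5, 34.8, 28.1 and 38.3 CPM in early telogen. The stages stood apart, and in early telogen the genotypes overlapped. On the log2 scale the change was -1.31 ± 0.17 in WT (edgeR adjusted p = 0.00137) and -1.53 ± 0.24 in KO (edgeR adjusted p = 0.00166). Elovl1, an elongase of very long saturated chains, and Elovl6, which turns palmitate into stearate, gave -0.31 ± 0.15 and -0.61 ± 0.45 in WT and 0.04 ± 0.21 and -0.59 ± 0.30 in KO, and none of these 4 differences passed in edgeR as set up here, although Elovl6 passed as lower in each genotype without early telogen replicate 1.

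Of the regulators, Insig2 and Srebf2 moved in opposite directions in WT. Insig2 (chr1:121304353-121332589, minus strand) was at 140, 106 and 162 CPM in WT anagen and at 52.9, 47.1 and 57.4 CPM in WT early telogen. In KO it was at 266 and 297 CPM in anagen and at 53.5, 45.4, 55.7 and 45.5 CPM in early telogen. All 5 anagen libraries were above all 7 early telogen libraries, which lay within 45.4 to 57.4 CPM whatever the genotype. The log2 fold change was -1.28 ± 0.18 in WT (edgeR adjusted p = 0.00163) and -2.48 ± 0.23 in KO (edgeR adjusted p = 7.35e-05). Its paralogue Insig1, itself a sterol-responsive SREBP target, was at 68.4, 50.2 and 45.3 CPM in WT anagen and at 57.3, 42.4 and 75.2 CPM in WT early telogen. In KO, Insig1 was at 49.5 and 119 CPM in anagen and at 85.1, 50.1, 56.5 and 57.1 CPM in early telogen. Its stages overlapped, with 0.17 ± 0.23 in WT (edgeR adjusted p = 0.612) and -0.43 ± 0.35 in KO (edgeR adjusted p = 0.392) on the log2 scale.

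Srebf2 (chr15:82147181-82205379, plus strand), whose product mainly drives sterol genes, was at 211, 145 and 165 CPM in WT anagen and at 283, 237 and 331 CPM in WT early telogen. In KO, Srebf2 was at 203 and 152 CPM in anagen and at 279, 246, 327 and 254 CPM in early telogen. Every early telogen library was higher than every anagen library of its genotype. Srebf2 rose by 0.80 ± 0.19 on the log2 scale in WT (edgeR adjusted p = 0.0123), a call that was lost without WT early telogen replicate 4 (edgeR adjusted p = 0.0664). In KO the difference of 0.65 ± 0.28 did not pass (edgeR adjusted p = 0.113). It did without early telogen KO replicate 2 (edgeR adjusted p = 0.0431) and with sex in the model (edgeR adjusted p = 0.0464). These alternatives are in effect the same, since that replicate was the only male KO library and the sex term fits it alone. Srebf1, whose product mainly drives fatty acid genes, was at 87.4, 56.8 and 54.3 CPM in WT anagen and at 54.5, 44.6 and 51.5 CPM in WT early telogen. At KO anagen it stood at 125 and 91.2 CPM, and at KO early telogen at 61.7, 94.0, 51.1 and 49.2 CPM, where replicate 2 reached the lower anagen value (it lay just below it in CPM over the shared names). The difference was -0.31 ± 0.20 in WT (edgeR adjusted p = 0.276) and -0.78 ± 0.25 in KO (edgeR adjusted p = 0.0430), the latter lost in 4 of 6 fits that left out 1 library, with an edgeR adjusted p of up to 0.292, and with library totals in place of TMM (edgeR adjusted p = 0.0604). Scap and Stard4, a cytosolic sterol carrier, gave 0.39 ± 0.19 and -0.43 ± 0.30 in WT and 0.10 ± 0.27 and -0.96 ± 0.40 in KO, and did not pass, although Stard4 did in KO with no filter on low counts and without early telogen replicate 3.

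The sterol enzymes split. Sqle (chr15:59315077-59331192, plus strand), whose product catalyses the first oxygen-dependent step, a rate-limiting one, was at 187, 125 and 148 CPM in WT anagen and at 329, 423 and 418 CPM in WT early telogen. In KO, Sqle was at 195 CPM in both anagen libraries and at 358, 154, 342 and 298 CPM in early telogen, where replicate 2 alone lay below anagen. Sqle rose by 1.45 ± 0.21 on the log2 scale in WT (edgeR adjusted p = 0.00177), and the 0.59 ± 0.37 of KO did not pass (edgeR adjusted p = 0.272). The KO difference of Sqle passed without early telogen KO replicate 2 or with sex in the model, which in KO sets the same library aside. Dhcr7 (chr7:143823145-143848410, plus strand), which catalyses the last step to cholesterol, was at 51.2, 44.6 and 39.5 CPM in WT anagen and at 47.6, 36.2 and 31.3 CPM in WT early telogen, where the stages overlapped. In KO it was at 50.3 and 45.9 CPM in anagen and at 15.3, 30.2, 19.3 and 24.0 CPM in early telogen, without overlap. The log2 fold change of Dhcr7 was -0.15 ± 0.19 in WT (edgeR adjusted p = 0.600) and -1.14 ± 0.26 in KO (edgeR adjusted p = 0.0113), a call lost without anagen KO replicate 1 (edgeR adjusted p = 0.0569). Sc5d, a lathosterol desaturase, fell in WT by 0.72 ± 0.24 (edgeR adjusted p = 0.0463) and gave -0.64 ± 0.24 in KO (edgeR adjusted p = 0.0745). The WT call of Sc5d was lost in 5 of 6 fits that left out 1 library, all but that without early telogen replicate 4, and with sex in the model.

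The rest of the sterol route did not pass in edgeR as set up here in either genotype, and 3 of its genes passed under other settings. The 6 genes of the mevalonate arm ranged from -0.84 (Mvd, the mevalonate diphosphate decarboxylase) to 0.40 (Idi1, the isopentenyl diphosphate isomerase) in WT and from -0.67 to 0.01 in KO. Mvd in WT lay close to the threshold (edgeR adjusted p = 0.0535) and passed as lower in DESeq2, with library totals, with no filter on low counts, in 1 fit of all 12 libraries and without anagen WT replicate 2 or early telogen WT replicate 4, with adjusted p from 0.00860 to 0.196 over all alternatives. Of the 11 genes from squalene synthesis to cholesterol, 9 were negative in WT and 8 in KO, with medians of -0.30 and -0.62. Those that did not pass in either genotype were Fdft1 (squalene synthase), Lss (lanosterol synthase), Cyp51 (lanosterol demethylase), Tm7sf2, Msmo1, Nsdhl and Hsd17b7 (which reduce or demethylate the sterol ring) and Ebp (a sterol isomerase), with differences from -0.95 (Msmo1 in KO) to 0.48 (Ebp in KO). In KO, Msmo1 (edgeR adjusted p = 0.0522) passed as lower in DESeq2, with library totals, with no filter, in the fit of all 12 libraries, with sex in the model and without early telogen replicate 2 or 3, and Lss in the fit of all 12 libraries, with sex in the model and without early telogen replicate 2. The sex model of KO and the fit without replicate 2 set the same library aside. Parts of Acat2, Fdft1, Fdps, Idi1 and Hmgcs1 recur elsewhere in the annotated transcripts, with 39.1%, 26.5%, 26.2%, 25.3% and 11.6% of their 50-base words shared, so the levels of these genes are uncertain where reads were split or dropped. Fdft1 also overlaps Ctsb on the opposite strand over 18.3% of its exon length, and the strand option of the counting is not given in the sources used here.

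The genes from citrate to palmitate were all positive in WT. Acly, the ATP citrate lyase that supplies cytosolic acetyl-CoA, was at 132, 115 and 121 CPM in WT anagen and at 160, 157 and 200 CPM in WT early telogen. In KO, Acly was at 146 and 122 CPM in anagen and at 168, 172, 165 and 154 CPM in early telogen. Early telogen was higher throughout, by 0.58 ± 0.16 in WT (edgeR adjusted p = 0.0226) and by 0.30 ± 0.22 in KO (edgeR adjusted p = 0.354) on the log2 scale. The WT call was lost in 3 of 6 fits that left out 1 library (anagen replicate 2, early telogen replicate 3 or early telogen replicate 4), with an edgeR adjusted p of up to 0.119, and with library totals in place of TMM (edgeR adjusted p = 0.0602). Acaca and Acacb (acetyl-CoA carboxylases) and Fasn (fatty acid synthase) gave 0.34 ± 0.18, 0.70 ± 0.54 and 0.43 ± 0.18 in WT and 0.03 ± 0.25, 0.94 ± 0.43 and -0.03 ± 0.25 in KO, and did not pass, although Fasn did in WT without anagen replicate 1. Acaca shares 30.4% of its 50-base words with other transcripts, among them Gm5182, and its level is uncertain for that reason.

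**Figure D3:**
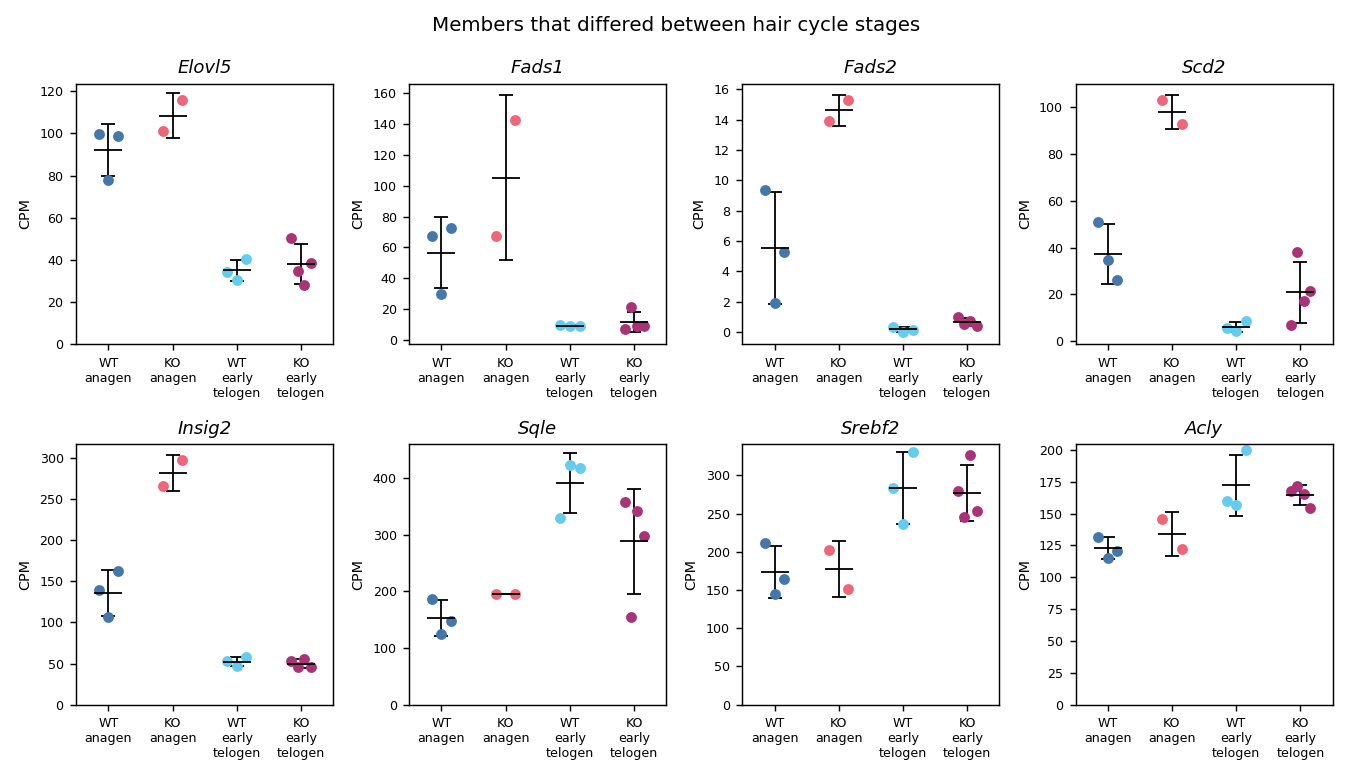
CPM (vertical axes, linear) of the 8 genes with the smallest p between stages in WT, in the 4 groups, with 1 point per library and bars of mean ± SD. Insig2 falls from 136 CPM in WT anagen and 282 CPM in KO anagen to 52.5 CPM in WT early telogen, with all early telogen libraries at 45.4 to 57.4 CPM, and Sqle rises from 153 to 390 CPM in WT.

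The second comparison asked what loss of Foxc1 did to these genes in anagen. Insig2 and Scd2 were at higher levels in both KO libraries than in all WT libraries, and most other genes of the set leaned the same way, but 0 of 34 passed in edgeR, where 0.00% of all 14409 genes passed in either direction. At an unadjusted p under 0.05 were 3 genes of the set (Scd2, Insig2 and Lss), as were 1456 of all genes. Positive differences were found for 26 genes and negative ones for 8, with a median of 0.25 beside 0.02 for all genes, of which 51.9% were positive. The KO libraries lay above all WT libraries for 14 genes, where 18.5% of all genes did, and below them for 0 genes, where 11.2% did. Those 14 were Acat2, Elovl5, Fads2, Fdft1, Idi1, Insig2, Lss, Msmo1, Nsdhl, Sc5d, Scd2, Sqle, Srebf1 and Tm7sf2.

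Scd2 gave 1.30 ± 0.28 (SE) on the log2 scale (edgeR adjusted p = 0.196), from 37.3 ± 12.7 CPM (SD, n = 3) in WT to 97.8 ± 7.0 CPM (SD, n = 2) in KO. Insig2 gave 0.96 ± 0.23 (edgeR adjusted p = 0.221), from 136 ± 28.1 to 282 ± 21.7 CPM. Both passed in DESeq2, which called 0.618% of all genes higher, with an adjusted p of 0.00720 for Scd2 and 0.0103 for Insig2. Both also passed in edgeR with no filter on low counts, where 0.257% of genes were called higher, and Insig2 alone passed in 1 edgeR fit of all 12 libraries (edgeR adjusted p = 0.0438), where 0.0531% were. Lss was at 25.9, 19.5 and 16.6 CPM in WT and at 31.1 and 34.2 CPM in KO, a difference of 0.57 ± 0.24 that did not pass (edgeR adjusted p = 0.487).

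The SREBP genes themselves did not pass. Srebf1 was higher in both KO libraries, by 0.62 ± 0.27 (edgeR adjusted p = 0.499), while Srebf2 overlapped, at -0.05 ± 0.24 (edgeR adjusted p = 0.969), and changed sign with library totals in place of TMM. Insig1 gave 0.53 ± 0.37 (edgeR adjusted p = 0.698) and rested on KO replicate 2, without which the value was -0.23. Fads2 and Fads1 gave 1.30 ± 0.57 and 0.81 ± 0.45, Elovl1 was the most negative at -0.39 ± 0.21, and the medians by role were 1.05 for desaturases, 0.40 for regulators and carriers, 0.30 for the squalene to cholesterol steps, 0.22 for the mevalonate arm, 0.15 for elongases and 0.05 for citrate to palmitate.

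Sex moved with genotype in these 5 libraries. With the sex label in the model, the KO libraries are in effect set against anagen WT replicate 1 alone, the only female WT library of anagen. The median of the 34 genes was then 0.00, while Insig2 stood at 0.94 (0.96 without sex in the model) and Scd2 at 0.86 (1.30 without). A part of sex cannot be told apart from a trait of that single library. Reads placed at more than 1 position, which were not counted for genes, were 31.1% and 32.8% of the deposited counts and tallies in KO and 20.1% to 25.8% in WT. Markers of dividing cells, all 7 present, summed to 500 and 132 CPM in KO and to 258, 86.3 and 60.7 CPM in WT, and sebaceous markers to 273 and 342 CPM in KO and 285 to 325 CPM in WT. Suprabasal markers, all 7 present, summed to 621 and 1090 CPM in KO and 1522 to 2253 CPM in WT, and adipocyte markers to 13.3 and 15.5 CPM in KO and 21.2 to 32.3 CPM in WT, both without overlap. The part of read placement or of any of these markers in the leaning of the set was not tested.

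**Figure D4:**
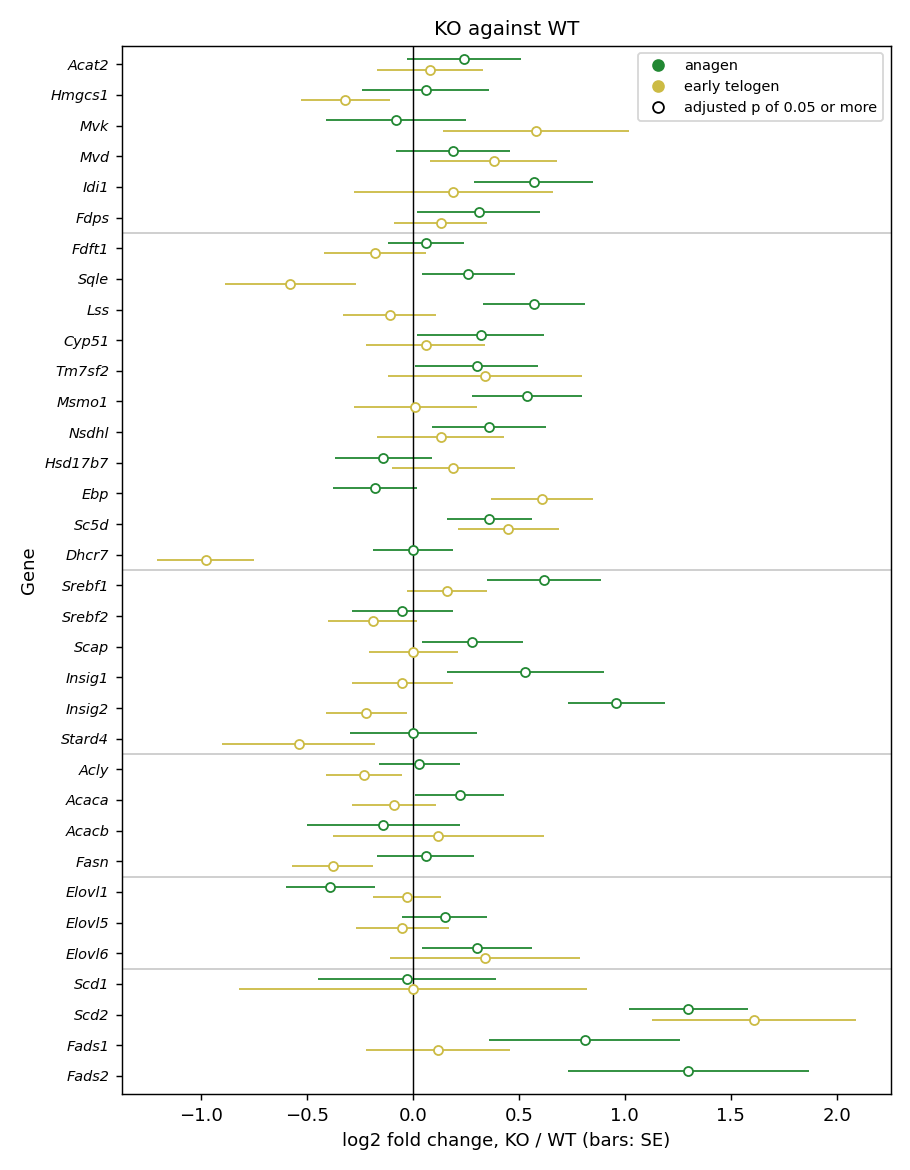
Log2 fold change of KO over WT for each gene, from edgeR, in anagen (green) and early telogen (yellow), with bars of 1 SE. Every symbol is open, since no adjusted p was under 0.05. Most anagen values lie right of 0, led by Scd2 and Fads2 at 1.30, and Dhcr7 lies farthest left, at -0.98 in early telogen. Fads2 has no early telogen value.

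The third comparison put the same question in early telogen, where the differences were spread to both sides of 0. Dhcr7 was lower and Ebp higher in all KO than in all WT libraries, and Scd2 was higher in 3 of 4 KO libraries than in every WT library. In edgeR 0 of the 33 genes tested passed and 3 had an unadjusted p under 0.05, whereas of all 12030 genes 0.499% rose, 0.457% fell and 0.956% did either. Fads2 was left out by the filter on low counts. There were 18 positive and 15 negative differences, with a median of 0.01 beside 0.03 for all genes. Without overlap were 1 higher gene, beside 9.75% of all genes, and 1 lower gene, beside 3.37%. Library totals in place of TMM moved the median of all genes to 0.21 and that of the set to 0.15.

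Dhcr7 stood at 38.3 ± 8.35 CPM (SD, n = 3) in WT and 22.2 ± 6.41 CPM (SD, n = 4) in KO, a log2 difference of -0.98 ± 0.23 (edgeR adjusted p = 0.0678). It passed in DESeq2 (adjusted p = 0.0114), which called 1.58% of genes lower, and in edgeR with no filter on low counts (adjusted p = 0.00634), which called 0.938% lower. Scd2 stood at 6.0 ± 2.23 CPM in WT and 20.9 ± 13.0 CPM in KO, a difference of 1.61 ± 0.48 (edgeR adjusted p = 0.168). It passed in DESeq2 (adjusted p = 0.0200), which called 1.94% of genes higher, and without KO replicate 1, its lowest KO library (edgeR adjusted p = 0.0364). Ebp, on chromosome X, was at 21.8, 20.9 and 30.0 CPM in WT and at 36.1, 35.3, 40.3 and 54.1 CPM in KO, a difference of 0.61 ± 0.24 that did not pass (edgeR adjusted p = 0.304).

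None of the 4 regulator genes passed. The log2 differences were 0.16 ± 0.19 for Srebf1 (edgeR adjusted p = 0.805), -0.19 ± 0.21 for Srebf2 (edgeR adjusted p = 0.794), -0.05 ± 0.24 for Insig1 (edgeR adjusted p = 0.957) and -0.22 ± 0.19 for Insig2 (edgeR adjusted p = 0.699). Markers of dividing cells, all 7 present, summed to 152 to 180 CPM in KO and to 19.6 to 34.7 CPM in WT, and 5 of these 7 passed as higher in KO. Fibroblast markers summed to 463 to 4975 CPM in KO and 253 to 1505 CPM in WT. Immune markers summed to 47.3 to 245 CPM in KO and 14.6 to 79.4 CPM in WT. All 5 tested were positive, with a median of 1.48 on the log2 scale, and 0 passed. Suprabasal markers summed to 1764 to 5957 CPM in KO and 1566 to 3833 CPM in WT. Of these 7 genes 4 were positive, and 1, Sbsn, passed as lower (log2 fold change -1.01 ± 0.19, edgeR adjusted p = 0.0304). Melanocyte markers, all 5 present, summed to 13.5 to 32.0 CPM in KO and 1.79 to 4.36 CPM in WT, without overlap, and 1 of the 3 tested, Dct, passed as higher (log2 fold change 2.34 ± 0.43, edgeR adjusted p = 0.0274). Without KO replicate 2 and WT replicate 3, an alternative chosen after seeing the data, 0 genes of the set passed in edgeR (2 had an unadjusted p under 0.05), 8 differences were positive and 25 negative, and the median was -0.12. The part of dividing cells, fibroblasts, immune cells, suprabasal cells or melanocytes in these values was not tested.

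**Figure D5:**
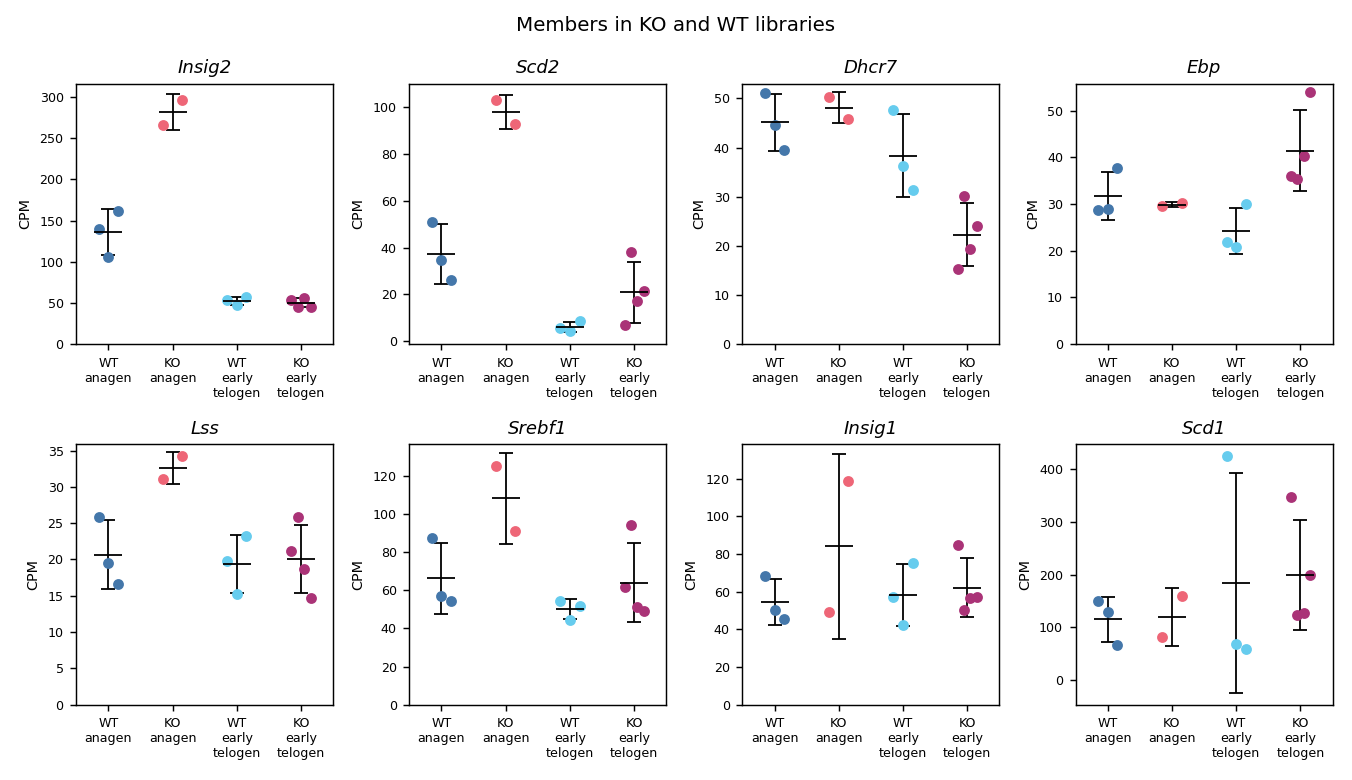
CPM (vertical axes, linear) of 8 genes of the set in the 4 groups, with 1 point per library and bars of mean ± SD. Dhcr7 and Ebp separate KO from WT in early telogen, Insig2, Scd2, Lss and Srebf1 separate them in anagen, and Scd1 and Insig1 overlap in both stages.

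The last comparison tested whether the KO difference itself differed between stages, over all 12 libraries. Insig2 was the nearest to passing: KO was above WT in anagen and overlapped with it in early telogen, a contrast of -1.21 ± 0.28 on the log2 scale (edgeR adjusted p = 0.164). Dhcr7 gave -1.0 ± 0.32 (edgeR adjusted p = 0.409) and Ebp 0.77 ± 0.34 (edgeR adjusted p = 0.747). Of the 34 genes 0 passed and 4 had an unadjusted p under 0.05, beside 0.129% of 13193 genes that were called higher, 0.0152% lower and 0.144% either. DESeq2 called Insig2 lower (adjusted p = 0.0160), as it did 0.136% of genes, and so did edgeR with no filter on low counts (adjusted p = 0.0196), with 0.416% of genes. Srebf1, Srebf2 and Insig1 gave -0.49 ± 0.32, -0.16 ± 0.32 and -0.61 ± 0.46, with edgeR adjusted p of 0.911 and above. The median of the set was -0.26, beside 0.04 for all genes. This contrast is also the difference between the stage changes of KO and WT, so the steeper fall of Insig2 in KO was not established by this test.

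Neighbouring lipid pathways were read from 5 further lists. Fatty acid oxidation genes leaned to lower levels in early telogen: 5 of 11 tested fell in WT and 7 of 11 in KO, where 15.9% and 12% of all genes fell, and the medians were -0.92 and -0.91, beside -0.10 and -0.03 for all genes. Decr1, which reduces the double bonds of unsaturated fatty acids for oxidation, was at 51.9, 24.6 and 41.1 CPM in WT anagen and at 8.93, 5.84 and 5.55 CPM in WT early telogen. All its anagen libraries were the higher ones, and its log2 fold change was -2.44 ± 0.30 in WT (edgeR adjusted p = 0.00128) and -1.81 ± 0.30 in KO (edgeR adjusted p = 0.00233). Hadha, a subunit of the mitochondrial trifunctional protein, fell by 1.01 ± 0.20 in WT (edgeR adjusted p = 0.00625) and by 1.09 ± 0.23 in KO (edgeR adjusted p = 0.00705).

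Of 15 genes of sterol uptake, storage and efflux, 1 rose and 4 fell in WT, and 2 rose and 3 fell in KO. The sterol exporter gene Abcg1 rose by 1.20 ± 0.38 in WT (edgeR adjusted p = 0.0398) and by 2.54 ± 0.42 in KO (edgeR adjusted p = 0.00235). Scarb1, a lipoprotein receptor gene, fell by 1.29 ± 0.38 (edgeR adjusted p = 0.0314) and by 1.49 ± 0.28 (edgeR adjusted p = 0.00406). Of the other fatty acid and glycerolipid genes, 2 rose and 3 fell of 21 in WT, and 1 rose and 2 fell of 22 in KO. Among them the acyl-CoA synthetase gene Acsl3 rose in WT by 1.42 ± 0.19 (edgeR adjusted p = 0.00144), and Mid1ip1, an activator of acetyl-CoA carboxylase, fell by 1.06 ± 0.25 in WT (edgeR adjusted p = 0.0123) and by 1.02 ± 0.23 in KO (edgeR adjusted p = 0.0119). Of 8 genes that control SREBP or the turnover of sterol enzymes, 1 rose in each genotype, Erlin1, by 0.57 ± 0.19 (edgeR adjusted p = 0.0423) and 0.99 ± 0.23 (edgeR adjusted p = 0.0128). Of the 7 other sterol enzymes tested, 1 fell in WT and 2 in KO. Over all genes 29.5% in WT and 22.2% in KO passed in either direction, and nothing is read from the counts of these 4 lists. Between KO and WT, 0 of 65 genes of these 5 lists tested in anagen and 0 of 61 in early telogen passed in edgeR, with 8 and 5 at an unadjusted p under 0.05. These lists were not tested with another tool.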

How the data were processed

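RNA of sorted hair follicle stem cells was sequenced after oligo(dT) selection with a directional kit, per the labels' protocols. The authors deposited raw gene-level read counts, with a separate table for each stage. TopHat2, HTSeq and the mm10 build are named in the submitters' processing notes, while versions, settings, the strand option and any batch are not given in the sources used here. Reads placed at several positions were tallied apart in the anagen table, 20.1% to 32.8% of all its counts, and 7.55% to 9.43% fell in no feature; these tallies were left out of library sizes. In the early telogen table, 3 broken lines were left out, and 27 of its names had become dates. The 34 genes were all found by symbol, Msmo1 by its older one.

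CPM values were counts over a library's gene total, which sets their precision (29025553 to 54482469 in anagen, 2662083 to 11821916 in early telogen). Exon lengths, 50-base words and coordinates came from the mouse annotation, and promoters from RefSeq. Tests used edgeR 4.0.16 in R 4.3.3 on the counts of the compared groups: TMM factors, a filterByExpr filter (at least 10 counts, 15 in total), the robust quasi-likelihood F-test, and p-values adjusted by Benjamini-Hochberg over all genes tested (threshold 0.05). The code was first run on simulated data simpler than these samples, with no batch differences, and nothing about these samples is read from that run. Alternatives were DESeq2 1.42.0, library totals, no filter, 1 fit of all 12 libraries, sex, a replicate block and leaving out libraries. The genes given in full were those that passed (at most 8 by p in a comparison), otherwise the 3 of smallest p, and Srebf1, Srebf2, Insig1 and Insig2. The members and lists were chosen with earlier results of these data known.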

Additional observations from a re-analysis of the deposited data

Results flagged for a closer look

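Among the 34 genes in the 4 early telogen KO libraries, the only group of 4 libraries, 2 genes had a library far from the rest. Mvk (mevalonate kinase) was at 25.0 CPM in replicate 2 and at 7.19, 6.67 and 7.14 CPM in replicates 1, 3 and 5. Fads1 was at 20.9 CPM in the same library and at 6.85, 8.89 and 8.64 CPM in the others. Replicate 2 was also the library with the highest fibroblast markers of its group (4975 CPM against 463 to 1500 CPM) and the highest immune markers (245 CPM against 47.3 to 102 CPM). Its suprabasal markers were the highest too (5957 CPM against 1764 to 2174 CPM). It was the only library of its group labelled male. The part of these markers or of sex in these values was not tested. Dixon's 95% critical value for 4 samples was used on 34 genes, and chance alone marks about 1 in 20 such groups.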

How the results depend on the processing

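Of 487 values of the genes given in full under other settings, 445 kept direction and side of the threshold, 13 passed only under the alternative, 13 no longer passed and 16 changed sign, all of these with no call. Genes of the set called in anagen KO were 0, but 2 higher with DESeq2 or with no filter and 1 in 1 fit of all 12 libraries, and 0 to 0 without 1 library. In early telogen KO they were 0, but 1 higher and 1 lower with DESeq2, 1 lower with no filter, and 0 to 1 higher without 1 library. Between stages in WT, 3 higher and 6 lower became 1 to 4 higher and 5 to 7 lower without 1 library. In KO, 0 higher and 7 lower became 2 higher with sex in the model, which sets early telogen KO replicate 2 aside. Without 1 library they became 0 to 2 higher and 4 to 9 lower. For the difference between stages, 1 was lower with DESeq2 or with no filter. Library totals turned Srebf2 in anagen KO to 0.03 and Insig1 in early telogen KO to 0.10. Leaving out early telogen KO replicate 2 and WT replicate 3, chosen after seeing the data, turned Srebf1 in early telogen KO to -0.03. Leaving out 1 library gave -0.29 to 0.14 for Srebf2 and -0.23 to 1.02 for Insig1 in anagen KO, -0.24 to 0.16 for Insig1 in early telogen KO, -0.07 to 0.37 and -0.95 to 0.29 for Insig1 between stages in WT and KO, and -0.37 to 0.09 for Srebf2 and -1.09 to 0.14 for Insig1 in the difference. The cause was not tested. Shared replicate numbers and days were not taken to pair samples. Same-numbered early telogen libraries deviated together with a correlation of 0.13 and 0.06, and same-day anagen libraries with 0.50 and 0.41, over 2 pairs each. The deviations of the 2 anagen KO libraries mirror each other, so the anagen values are not separate checks and do not decide the pairing. Fits with a replicate block had 1 residual degree of freedom in either KO comparison. A replicate block left 0 genes of the set called in either KO comparison, with 253 of all genes called in anagen (0 without the block) and 11 in early telogen (115 without), and turned Insig1, Srebf2 and Insig2 in early telogen KO to 0.39, 0.11 and 0.02 and Srebf2 in the difference to 0.25. Fads2 in early telogen, with 0 to 12 counts a library, was limited by depth.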
